A study of Mus musculus with 22 samples.

Results

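The mTOR pathway genes described here are 10 genes that were chosen by name: Mtor, Rptor and Rictor of the kinase complexes, Rheb, Tsc1, Tsc2 and Ddit4 of the branch that sets their activity, the upstream kinase gene Akt1, and the genes of the substrates S6K1 and 4E-BP1, Rps6kb1 and Eif4ebp1. All 10 were among the 10516 genes with values. They were measured in NIH3T3 cells, an established line of mouse embryonic fibroblasts, by ribosome profiling (RPF-seq, the sequencing of mRNA fragments protected by ribosomes) and RNA-seq of the same lysates. Cells were transduced with lentiviral vectors and selected with puromycin, so that each group carried an shRNA: 3 lysates had Denr shRNA1, 3 had Denr shRNA2, 3 had scramble shRNA and 2 had Gfp shRNA. The first 6 lysates are called knockdown and the last 5 control, and each gave 1 library of either kind, 22 in all. The cells of all groups were kept in medium with serum and received cycloheximide shortly before harvest to arrest elongation. The shRNAs lower Denr without deleting it, no group was left without transduction, and the contrast of knockdown and control therefore averages over a pair of hairpins on each side.

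The kinase mTOR works in a pair of complexes. mTORC1, defined by Raptor (the product of Rptor), promotes protein synthesis and cell growth when amino acids and growth factors are present, and mTORC2, defined by Rictor, phosphorylates AKT. The small GTPase Rheb switches mTORC1 on, and the TSC complex, formed by the products of Tsc1 and Tsc2, switches Rheb off. AKT relieves this brake by phosphorylating TSC2, whereas Ddit4 (also called REDD1), which is induced by stress such as hypoxia and glucocorticoids, restores it. mTORC1 phosphorylates S6K1, a kinase of ribosomal protein S6, and 4E-BP1, which in its unphosphorylated form blocks the cap-binding factor eIF4E. The mRNAs that depend most on this control carry a terminal oligopyrimidine (TOP) tract and encode ribosomal proteins and elongation factors. DENR, together with MCTS1, recycles small ribosomal subunits after termination and promotes reinitiation behind upstream open reading frames (uORFs) in 5′ UTRs. Because the study compared translation with and without normal DENR levels, the question for these genes is whether their mRNA, their ribosome footprints or the share of footprints on their 5′ UTRs differed.

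The 5′ UTRs of the members differed widely in length and in upstream AUGs. In GENCODE vM21 (GRCm38), on the transcript with the longest CDS, the 5′ UTR of Rptor was the longest with 661 nt, followed by Rheb with 388 nt and Akt1 with 370 nt. That of Rictor had only 20 nt. uORFs were counted where an upstream AUG was followed by a stop codon in frame, over at least 9 nt in all. Tsc1 had 4 uORFs that ended within the 5′ UTR, Rheb had 3, and Akt1 and Rptor had 1 each. Rps6kb1 had 1 uORF that ran 4 nt into the CDS, and Mtor, Rictor, Tsc2, Ddit4 and Eif4ebp1 had no upstream AUG on these transcripts. Thus, 4 of the 10 members carried a uORF within the 5′ UTR, beside 42.2% of the 10205 genes with an annotated 5′ UTR. On the transcript with the longest 5′ UTR the count was 6, since Rps6kb1 and Tsc2 have other transcripts with such uORFs, beside 54.2% of 10421 genes. Those transcripts have an annotated CDS of only 222 nt (Rps6kb1) and 23 nt (Tsc2), beside 1575 and 5424 nt for the longest CDS. Their 5′ UTRs of 333 and 409 nt also differ from the 214 and 121 nt behind the RPKM. So do the 5′ UTRs of 99 and 87 nt on the transcripts with the longest CDS. For Rps6kb1 and Tsc2 neither count therefore describes exactly the 5′ UTR that was measured. To show the letters around these start codons, the 6 nt before each upstream AUG and the 4 nt behind it are given 5′ to 3′ in DNA letters, with the AUG in capitals:
Akt1, upstream AUG 1: cgcgggATGcgga
Rptor, upstream AUG 1: ggcacgATGggcc
Rheb, upstream AUG 1: agggtcATGacgc
Rheb, upstream AUG 2: ctctgtATGccgc
Rheb, upstream AUG 3: cggttaATGtggt
Tsc1, upstream AUG 1: tccaagATGgcgg
Tsc1, upstream AUG 2: gtgaccATGaaag
Tsc1, upstream AUG 3: aaactgATGtacc
Tsc1, upstream AUG 4: gccctaATGaaga
Rps6kb1, upstream AUG 1: ccggtgATGgcgg
The uORF of Akt1 had 12 codons before its stop, which lay 120 nt before the CDS. That of Rptor had 19 codons and ended 504 nt before the CDS. The uORF at AUG 3 of Rheb, with 6 codons, ended 13 nt before the CDS, and that at AUG 3 of Tsc1, with 31 codons, ended 8 nt before it. The files give no positions within a 5′ UTR, so whether any of these uORFs was translated was not analysed.

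The knockdown was visible in every library. Denr RNA was 77.5% ± 2.95 (SD, n = 3) below the control mean with shRNA1 and 90.1% ± 1.496 (SD, n = 3) below it with shRNA2, and Denr footprints were lower by 79.3% ± 5.15 and 92.8% ± 1.34 (SD, n = 3 each). All 8 fibroblast markers examined were present (Vim, Col1a1, Col1a2, Col3a1, Fn1, Pdgfrb, Thy1, S100a4). Their mean RNA in control lysates was 30.8 (Pdgfrb) to 4106 RPKM (Vim). Of 16 markers of epithelial, endothelial, haematopoietic, muscle and neural cells, 4 were among the genes. The haematopoietic marker Lyz2, with 33.8 RPKM, was above Pdgfrb, and the others had at most 3.64 RPKM (Cdh1). The libraries held 8514080 to 20109699 reads (RNA-seq) and 10927303 to 21649878 reads (RPF-seq) on CDS and 5′ UTR, and the lowest number was in the RNA-seq library of scramble replicate 3. The RNA-seq libraries of Denr shRNA1 replicate 1 and Gfp replicate 1 stood apart for some members, as described below. RPKM is a number of reads per length of the region and per reads of the library, here scaled by the upper quartile, so levels and changes are relative within a kind of library and total RNA or protein synthesis per cell is not measured.

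In control cells the members spanned a 53.2-fold range of RNA and a 153-fold range of footprints per length of CDS. Eif4ebp1 was the most abundant, with 516 ± 39.0 RPKM of RNA (SD, n = 5) and 866 ± 83.7 RPKM of footprints. Akt1 RNA followed with 315 ± 35.4 RPKM and Rheb RNA with 205 ± 32.6 RPKM. The ranges of these neighbours over the 5 control lysates did not overlap. Rps6kb1 (51.2 ± 11.1 RPKM) and Ddit4 (39.2 ± 9.81 RPKM) came next and overlapped. Rictor (27.6 ± 4.08 RPKM), Tsc1 (25.6 ± 1.33 RPKM) and Rptor (23.5 ± 1.34 RPKM) overlapped as neighbours in the order, near the median of all genes (28.2 RPKM). The GTPase-activating subunit gene Tsc2 (10.3 ± 0.841 RPKM) and Mtor itself (9.70 ± 0.638 RPKM) had the lowest RNA levels and were not apart from each other. For footprints the order was Eif4ebp1, Rheb, Akt1, Ddit4, Rps6kb1, Rptor, Rictor, Tsc2, Tsc1 and Mtor, the last with 5.67 ± 0.236 RPKM.

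**Figure D1:**
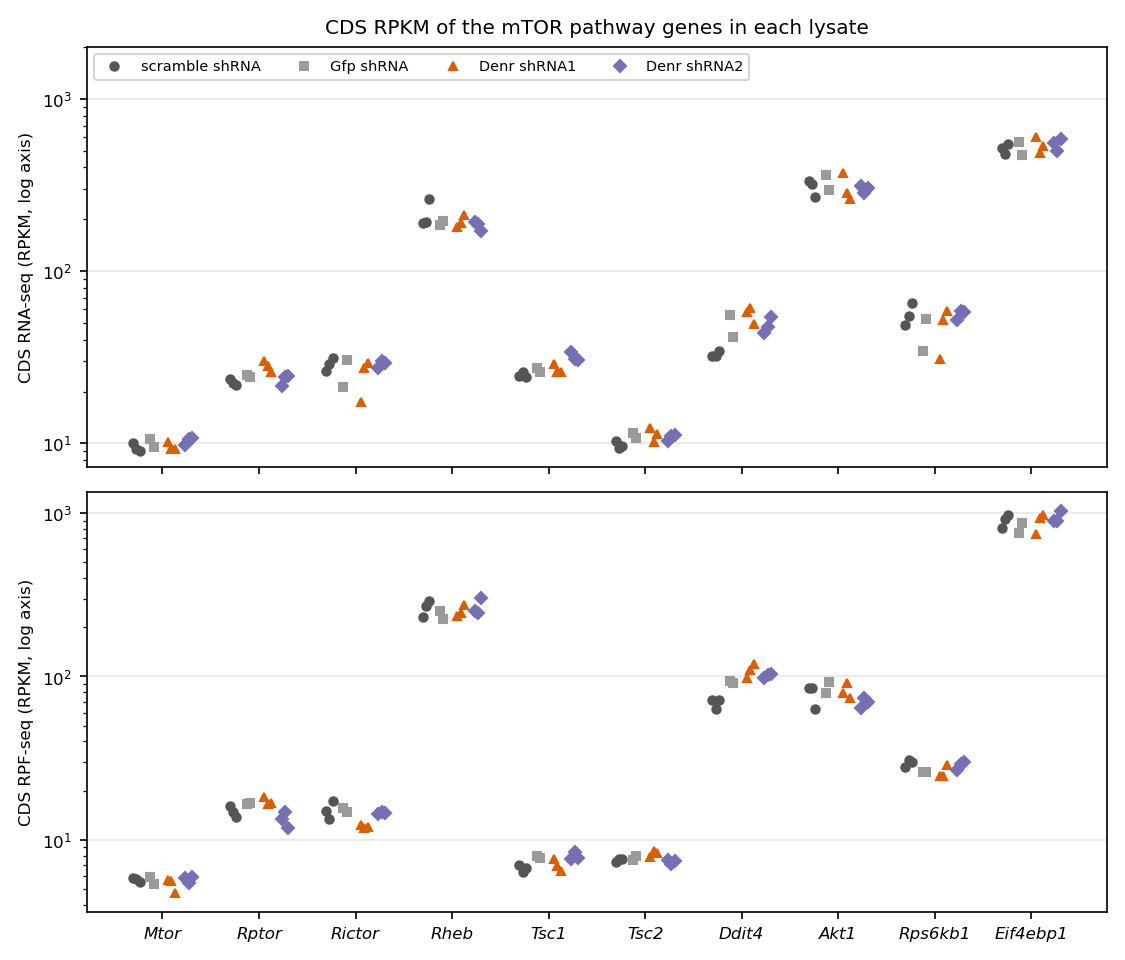
CDS RPKM of the 10 mTOR pathway genes in RNA-seq (top) and RPF-seq (bottom), on log axes. Each point is 1 lysate, with symbols for the 4 shRNAs. By the mean of the control lysates, Eif4ebp1 is the highest and Mtor the lowest gene in both assays, and the Ddit4 points of scramble shRNA lie below those of the other 3 shRNAs.

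Translation efficiency (TE) is the log2 difference of CDS footprints and CDS RNA of a lysate, and the median of all genes in control cells was -0.08. Ddit4 (1.01 ± 0.16, SD, n = 5) and Eif4ebp1 (0.74 ± 0.20) had the highest log2 TE of the members, above 93.0% and 87.3% of all genes, and did not differ beyond their spread. Rheb stood at 0.31 ± 0.14. Tsc2 (-0.43 ± 0.12), Rptor (-0.59 ± 0.05), Mtor (-0.76 ± 0.06), Rps6kb1 (-0.83 ± 0.27) and Rictor (-0.84 ± 0.26) followed, with Rptor and Mtor apart and the other neighbours overlapping. Tsc1 (-1.83 ± 0.11) and Akt1 (-1.96 ± 0.20) had the lowest log2 TE, above only 5.56% and 4.49% of all genes, and overlapped each other. All 5 control lysates of Tsc1 and Akt1 lay below all those of the other 8 members. Both genes have a uORF within the 5′ UTR, but so have Rheb and Rptor at higher TE. The number of genes is too small to relate the features to TE.

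None of the 10 members passed an FDR of 0.1 for TE on Denr knockdown (limma, Benjamini-Hochberg adjustment over 10516 genes). Across all genes, 0.475% passed with lower and 0.0% with higher TE, and at this rate a set of 10 genes holds less than 1 call. The log2 changes of the members ranged from -0.17 for Rptor to 0.15 for Rheb, with a median of -0.06 beside -0.01 over all genes, 3 above and 7 below 0. The unadjusted p was under 0.05 in 0 of the members with limma, beside 6.66% of all genes, and in 1 with limma-voom on the recovered reads, namely Rptor. Rptor had a log2 TE of -0.76 ± 0.15 (SD, n = 6) in knockdown and -0.59 ± 0.05 (SD, n = 5) in control lysates, a difference of -0.17 (95% interval -0.35 to 0.01, adjusted p = 0.805, limma), and all 6 knockdown lysates lay below the control mean. The same was true of Tsc1 at -0.14 (95% interval -0.32 to 0.05, adjusted p = 0.894, limma). Rheb at 0.15 (95% interval -0.07 to 0.36, adjusted p = 0.925, limma) had all 6 knockdown lysates above the control mean. For Mtor the interval was -0.24 to 0.08, for Eif4ebp1 -0.27 to 0.27 and for Ddit4 -0.23 to 0.24. The widest intervals were those of Rictor (-0.47 to 0.18) and Rps6kb1 (-0.40 to 0.27). Knockdown and control lysates overlapped in TE for every member, beside 1.42% of all genes without overlap.

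Rictor and Rps6kb1 RNA was low in a pair of RNA-seq libraries. Rictor RNA was 17.4 RPKM in Denr shRNA1 replicate 1 and 21.1 RPKM in Gfp replicate 1, while the other 9 lysates had 26.2 to 31.2 RPKM. For Rps6kb1 the same libraries had 30.8 and 34.5 RPKM, while the others had 49.0 to 65.0 RPKM. Akt1 RNA was highest in these libraries, with 369 and 360 RPKM. In the RPF-seq libraries of the same lysates, the footprints were 12.3 and 15.6 RPKM for Rictor and 24.6 and 26.2 RPKM for Rps6kb1, within the ranges of 11.8 to 17.3 and 24.4 to 31.0 RPKM over all lysates. Leaving out 1 lysate at a time, the TE change of Rictor ranged from -0.24 to -0.04, that of Rps6kb1 from -0.18 to 0.04 and that of Akt1 from -0.13 to 0.02, and none passed the FDR of 0.1.

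**Figure D2:**
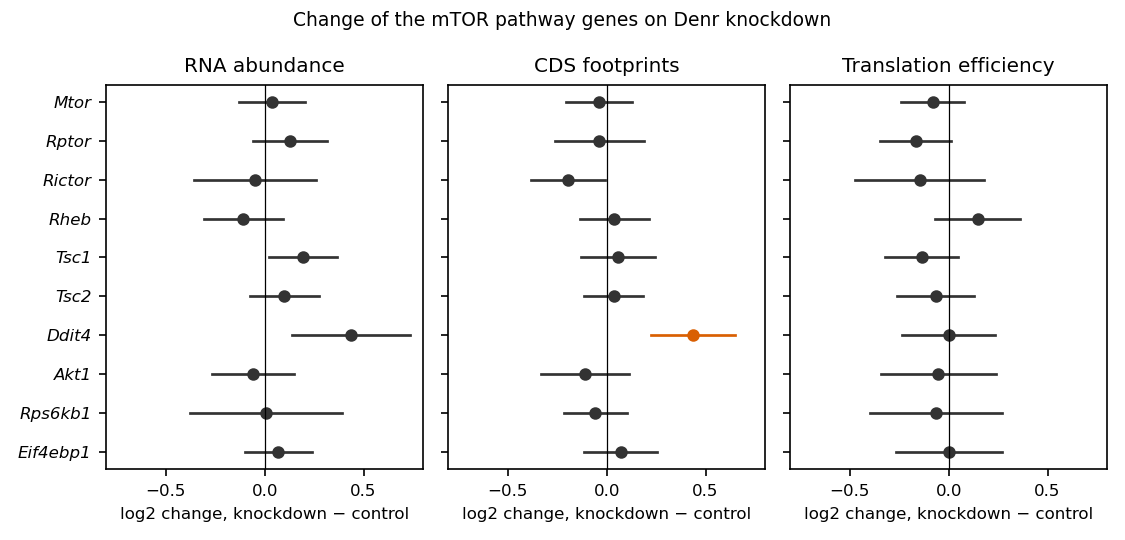
Log2 change of the 10 members on Denr knockdown (6 knockdown minus 5 control lysates) for RNA abundance, CDS footprints and TE; points are limma estimates and lines their 95% intervals. The footprints of Ddit4 (orange, 0.44) are the only estimate past an FDR of 0.1, and all TE estimates lie between -0.17 and 0.15.

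Ddit4, the stress-induced inhibitor of mTORC1, was the only member whose footprint change on knockdown, a rise, passed the test. Ddit4 CDS footprints were 97.9, 109 and 120 RPKM with Denr shRNA1 and 98.1, 102 and 103 RPKM with Denr shRNA2. In control lysates they were 94.4 and 90.7 RPKM with Gfp shRNA and 71.9, 63.0 and 71.3 RPKM with scramble shRNA. Every knockdown lysate was above every control lysate, and the Gfp lysates were close to the lowest knockdown lysates. The change was 1.35-fold (log2 0.44, SE 0.10, 95% interval 0.22 to 0.65, adjusted p = 0.0256, limma). In the background 5.47% of genes passed the test as higher and 4.55% as lower in footprints. The groups did not overlap in 4.45% of all genes. Thus, 1 call and 1 gene without overlap among 10 is about the background rate.

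Ddit4 RNA moved by the same amount. It was 58.3, 61.1 and 49.1 RPKM with Denr shRNA1, 43.5, 47.4 and 54.1 RPKM with Denr shRNA2, 55.4 and 41.5 RPKM with Gfp shRNA and 32.2, 32.3 and 34.6 RPKM with scramble shRNA. Gfp replicate 1 lay among the knockdown lysates and Gfp replicate 2 just below them, while the scramble lysates were the lowest. The log2 change was 0.44 (SE 0.14, adjusted p = 0.134, limma) and did not pass the test. The TE of Ddit4 was 1.01 in knockdown and in control lysates alike, with SDs of 0.21 and 0.16, and its change was 0.00 (adjusted p = 0.999, limma).

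The Ddit4 change depended on the choice of control. Between the control shRNAs, Ddit4 footprints were higher with Gfp than with scramble shRNA by 0.43 on the log2 scale (SE 0.09, adjusted p = 0.0219, limma fit of the 4 shRNA groups), about as much as between knockdown and control. It was the only member to differ between these, where 8.48% of all genes did in footprints, 0.704% in RNA and 0.0% in TE. The call between the control shRNAs was lost without Gfp replicate 1 (0.40, adjusted p = 0.126) and without Gfp replicate 2 (0.46, adjusted p = 0.117), at a difference of about the same size. Against scramble shRNA alone, the knockdown change of Ddit4 was 0.61 in footprints (adjusted p = 0.000949, limma) and 0.65 in RNA (adjusted p = 0.00835, limma). Against Gfp shRNA alone, it was 0.18 in footprints (adjusted p = 0.476, limma), with 2 control lysates. The number of calls among all 10516 genes also depended on the control. Against scramble shRNA alone, 1470 genes were called higher and 1181 lower in footprints, and 708 and 232 in RNA. Against Gfp shRNA alone, 45 were called higher and 47 lower in footprints. With each hairpin set against all controls in the fit of the 4 groups, the log2 change of the footprints was 0.49 for shRNA1 (adjusted p = 0.00101) and 0.39 for shRNA2 (adjusted p = 0.00593). In a fit of the shRNA2 and control lysates alone, the change for shRNA2 was the same but did not pass (adjusted p = 0.112, limma). In that fit 379 of all genes were called higher and 395 lower. The difference of the hairpins for Ddit4 was -0.10 (95% interval -0.28 to 0.07).

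The footprints of the complex genes Rptor and Rictor differed between the Denr hairpins, in opposite directions. Rptor footprints were 18.3, 16.7 and 16.8 RPKM with Denr shRNA1 and 13.4, 14.7 and 11.8 RPKM with Denr shRNA2. The groups did not overlap. The control lysates, with 16.5 and 16.7 RPKM for Gfp and 16.0, 14.8 and 13.8 RPKM for scramble shRNA, lay between and across them. The difference of shRNA2 minus shRNA1 was -0.38 on the log2 scale (SE 0.09, 95% interval -0.58 to -0.18, adjusted p = 0.0312, limma). Rictor footprints were 12.3, 11.8 and 12.03 RPKM with shRNA1 and 14.4, 14.8 and 14.5 RPKM with shRNA2, beside 15.6 and 14.7 RPKM for Gfp and 15.1, 13.4 and 17.3 RPKM for scramble shRNA. All 3 shRNA1 lysates were below all other lysates, and the difference of the hairpins was 0.28 (SE 0.09, 95% interval 0.09 to 0.47, adjusted p = 0.0924, limma). These are 2 of 10 members, beside 9.69% of all genes in footprints, 2.06% in RNA and 0.0% in TE for the same contrast.

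**Figure D3:**
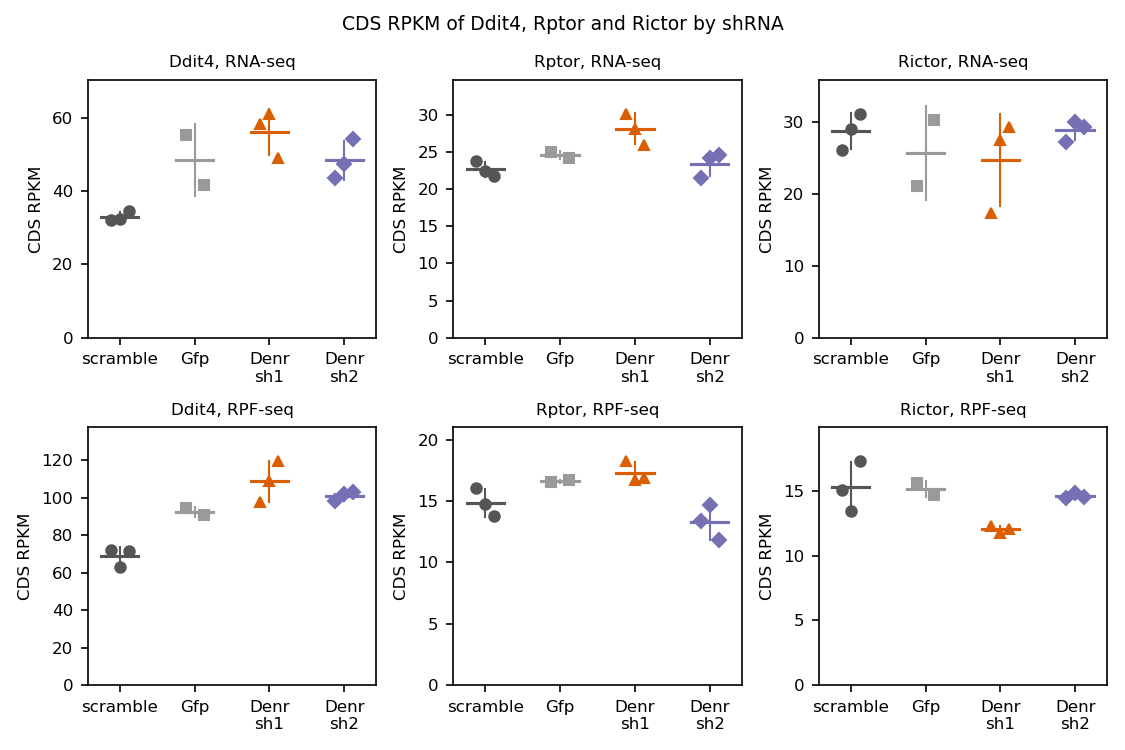
CDS RPKM of Ddit4, Rptor and Rictor in RNA-seq (top) and RPF-seq (bottom) by shRNA; points are lysates, horizontal bars means and vertical bars SDs, with 3 lysates per shRNA and 2 for Gfp. Ddit4 is lowest with scramble shRNA, Rptor footprints are lower with Denr shRNA2 (11.8 to 14.7 RPKM) than with Denr shRNA1 (16.7 to 18.3 RPKM), and Rictor footprints are lowest with Denr shRNA1.

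Set against all controls in the 4-group fit, Rictor footprints fell with shRNA1 by 0.33 on the log2 scale (adjusted p = 0.0182, limma), while the change with shRNA2 was -0.06 (adjusted p = 0.695). For Rptor footprints the change with shRNA2 was -0.23 (adjusted p = 0.0917, limma), which passed in this fit but not in a fit of the shRNA2 and control lysates alone (adjusted p = 0.210, limma), while the change with shRNA1 was 0.15 (adjusted p = 0.263). Averaged over the hairpins, Rictor footprints changed by -0.19 (95% interval -0.38 to -0.01, adjusted p = 0.190, limma), with all 6 knockdown lysates below the control mean, and Rptor footprints by -0.04 (95% interval -0.26 to 0.19, adjusted p = 0.859, limma). Neither passed the test. The RNA of Rptor differed between the hairpins in the same direction as its footprints, by -0.26 (95% interval -0.46 to -0.06, adjusted p = 0.237, limma), and that of Rictor by 0.26 with an interval from -0.15 to 0.67. The contrasts of each hairpin share their control lysates. How many of all genes passed for each hairpin in the 4-group fit was not counted. In fits of 1 hairpin and the control lysates alone, footprints of 330 genes were called higher and 487 lower with shRNA1. With shRNA2 these numbers were 379 and 395, each of 10516 genes. The Rptor difference lost its call without Denr shRNA1 replicate 1 (-0.34, adjusted p = 0.112) and without Denr shRNA2 replicate 3 (-0.30, adjusted p = 0.128). The Rictor difference was past the threshold only with all 11 lysates or without scramble replicate 2 or scramble replicate 3, while with 1 lysate left out it stayed at 0.26 to 0.29 with an adjusted p from 0.0385 to 0.235.

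For the remaining members, the intervals of the footprint changes reached from -0.33 to 0.25. Mtor footprints were 4.70 to 5.91 RPKM in knockdown (median 5.62 RPKM) and 5.36 to 5.95 RPKM in control lysates, a log2 change of -0.04 (95% interval -0.21 to 0.13). Tsc2 footprints were 7.14 to 8.52 RPKM against 7.26 to 7.99 RPKM, a change of 0.04 (95% interval -0.11 to 0.18). For Tsc1, the partner of Tsc2, the change was 0.06 (95% interval -0.13 to 0.24), and for Rheb 0.04 (95% interval -0.14 to 0.21). The kinase genes Akt1 and Rps6kb1 changed by -0.11 (95% interval -0.33 to 0.11) and -0.06 (95% interval -0.21 to 0.10), and Eif4ebp1 by 0.07 (95% interval -0.11 to 0.25). Over the 10 members the median change of footprints was 0.00, beside 0.01 for all genes, and 5 changes were above and 5 below 0.

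RNA abundance of no member passed the test, where 2.68% of all genes rose and 0.865% fell. The groups overlapped for all 10 members and did not overlap for 3.67% of all genes. At an unadjusted p under 0.05 there were 2 of 10 members, Ddit4 and Tsc1, with limma, beside 16.1% of all genes. Tsc1 RNA, which encodes the stabilizing subunit of the TSC complex, was 25.96 to 33.8 RPKM in knockdown (median 29.7 RPKM) and 24.2 to 27.5 RPKM in control lysates. All 6 knockdown lysates were above the control mean, and the log2 change was 0.19 (95% interval 0.02 to 0.37, adjusted p = 0.249, limma). By hairpin it was 0.31 for shRNA2 (adjusted p = 0.0489, limma) and 0.07 for shRNA1 (adjusted p = 0.661). The difference between the hairpins, 0.24, had an adjusted p of 0.249 (limma). In a fit of the shRNA2 and control lysates alone, RNA of 306 of all genes was called higher and 168 lower. With shRNA1 these numbers were 70 and 89. For the other members the RNA changes lay between -0.11 (Rheb) and 0.13 (Rptor). Rheb RNA was 262.5 RPKM in the shallow library of scramble replicate 3 and 184 to 195 RPKM in the other 4 control lysates.

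On the 5′ UTR, footprints were sufficient for a test in 6 members, Akt1, Rps6kb1, Ddit4, Rheb, Rptor and Tsc1, which had at least 20 reads there in 9 or more of 11 libraries. Relative 5′ UTR translation is the log2 difference of the 5′ UTR and CDS footprints of a lysate. On knockdown it passed the test as higher in 18.1% of the 5175 genes with this coverage and as lower in 0.0386%, with a median change of 0.33. Of the 6 members, Akt1 alone passed the test. The changes of all 6 were above 0, with a median of 0.25, and 4841 of the 5175 genes changed in this direction.

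Akt1, the kinase gene with the lowest TE of the members, had 303 to 432 footprint reads on its 5′ UTR in knockdown (median 368) and 197 to 385 in control lysates. The log2 ratio of 5′ UTR to CDS was -0.39, -0.12 and 0.07 with Denr shRNA1 and 0.15, 0.13 and 0.25 with Denr shRNA2. In control lysates it was -0.95 and -0.62 with Gfp shRNA and -0.75, -0.88 and -0.29 with scramble shRNA. Denr shRNA1 replicate 1 lay below scramble replicate 3, and otherwise the groups were apart. The change was 1.64-fold (log2 0.71, SE 0.17, 95% interval 0.36 to 1.06, adjusted p = 0.0374, limma), above 94.9% of the genes tested. The same ratio in RNA-seq changed by 0.16 (95% interval -0.06 to 0.38, adjusted p = 0.960, limma). With footprints on the 5′ UTR divided by its RNA instead of the CDS footprints, the change was 0.50 (adjusted p = 0.211, limma). Relative to the median gene of each library it was 0.39 (adjusted p = 0.501, limma). Without Denr shRNA2 replicate 2 it was 0.69 (adjusted p = 0.107).

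**Figure D4:**
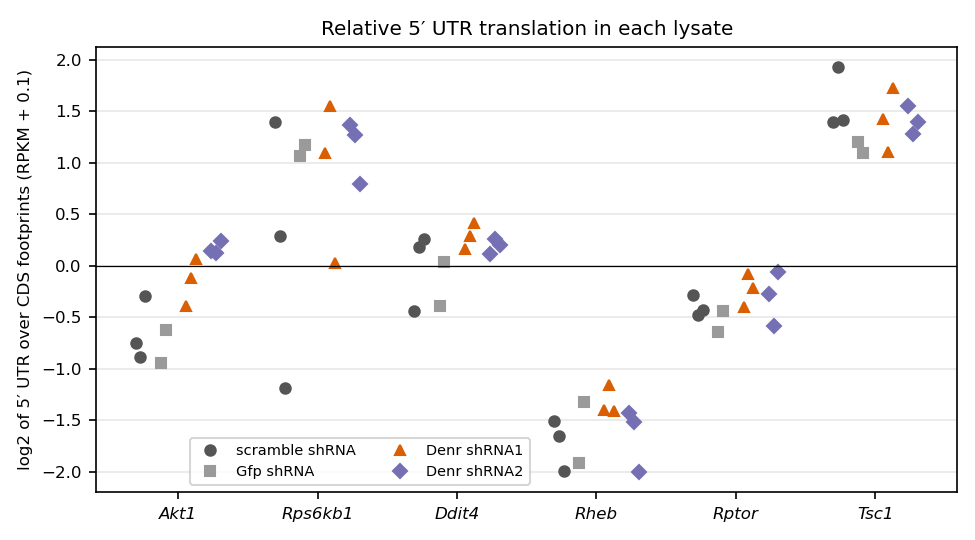
Relative 5′ UTR translation (log2 of 5′ UTR over CDS footprints, each RPKM plus 0.1) of the 6 members with enough 5′ UTR reads; each point is 1 lysate. Akt1 is higher in knockdown lysates (-0.39 to 0.25) than in control lysates (-0.95 to -0.29) with 1 pair crossing, Rps6kb1 is widely spread, and the Tsc1 points of both conditions overlap.

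The other members with coverage did not pass the test, which left the replicate numbers out. Ddit4 changed by 0.31 (95% interval -0.03 to 0.65, adjusted p = 0.180, limma), with all 6 knockdown lysates above the control mean. Rheb, with 338 to 584 reads in knockdown lysates, changed by 0.19 (95% interval -0.19 to 0.58, adjusted p = 0.425, limma). Rptor changed by 0.18 (95% interval -0.13 to 0.50, adjusted p = 0.351, limma). Tsc1, which has the most upstream AUGs on the transcripts with the longest CDS, had more footprints per length on the 5′ UTR than on the CDS in all 11 lysates, with log2 ratios of 1.10 to 1.93. Its change was 0.00 (95% interval -0.36 to 0.37, adjusted p = 0.985, limma), above only 6.65% of the genes tested. Rps6kb1 ranged from -1.19 in scramble replicate 3 to 1.55 in Denr shRNA1 replicate 2, and its change was 0.47 with an interval from -0.33 to 1.27. The lysates overlapped for all 6 members, whereas 4.83% of the tested genes had no overlap. The same ratio taken from RNA-seq passed the test in none of the 6 and in 0.0% of all genes in either direction. For this ratio, Tsc1 alone had an unadjusted p under 0.05, as had 4.27% of all genes, with a change of 0.25 (95% interval 0.06 to 0.44, adjusted p = 0.960, limma).

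In the 4 members without this coverage the 5′ UTR held few footprints. Rictor, whose 5′ UTR is the shortest, had 0 reads there in all 11 RPF-seq libraries. Footprints were placed by their A-site, well behind the start of the read, so a 5′ UTR this short has few positions that can receive one. The 0 reads therefore do not show that ribosomes were absent there. Tsc2 had 0 to 7 reads and Mtor 5 to 23. Eif4ebp1 had 5 to 51 reads on its 5′ UTR beside 3205 to 6909 on its CDS. No change is given for these.

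Some values rest on mixed annotation. The lengths behind the RPKM were those of the annotated CDS for Akt1, Ddit4, Eif4ebp1, Rheb and Rictor. For Rps6kb1 they were 1936 nt of CDS and 214 nt of 5′ UTR, above the 1575 and 99 nt of its transcript with the longest CDS, so that its regions combine several isoforms. For Tsc2 they were 5226 nt of CDS and 121 nt of 5′ UTR, beside 5424 and 87 nt on its transcript with the longest CDS. For Ddit4 the 5′ UTR behind the RPKM had 134 nt and the annotated one 198 nt. Exons of Tsc2 (chr17:24595816-24632630, minus strand) and of Pkd1 on the opposite strand share 693 nt, those of Rps6kb1 (chr11:86498871-86544805, minus strand) and Rnft1 share 155 nt, and those of Rptor (chr11:119602905-119899576, plus strand) and the antisense gene Rptoros share 84 nt. Whether the counting used strand is not given in the sources used here, and without it reads there cannot be told apart. Ddit4 (ENSMUSG00000020108, chr10:59949669-59951834, minus strand), Akt1 (ENSMUSG00000001729, chr12:112653821-112674884, minus strand) and Rictor (ENSMUSG00000050310, chr15:6708379-6800401, plus strand) have no such overlap. All positions are on GRCm38.

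The wider pathway was described by lists of complex subunits, TSC and Rheb regulators, amino acid sensors, PI3K and AKT genes, AMPK subunits and mTORC1 targets, which hold 79 genes beside the members, 74 of them with values. For TE, 0 of the 74 passed the test with limma, 7 had an unadjusted p under 0.05, beside 6.66% of all genes, and 1 passed with limma-voom. The genes with the smallest p were Eif4b (-0.29, SE 0.08, adjusted p = 0.218, limma), which encodes an S6K1 substrate that stimulates the helicase eIF4A, the transcription factor gene Tfe3 (-0.30, adjusted p = 0.291) and the PI3K catalytic subunit gene Pik3cb (-0.27, adjusted p = 0.625). These do not pass. In RNA, 1 of the 74 passed as higher and 1 as lower (1.35% each), beside 2.68% and 0.865% of all genes. None (0) passed without Denr shRNA2 replicate 2 or 3 or without any 1 of the scramble lysates. Pik3r2, a regulatory subunit of PI3K, rose by 0.33 (SE 0.09, adjusted p = 0.0986, limma) from 53.5 ± 6.62 (SD, n = 5) to 67.1 ± 6.67 RPKM (SD, n = 6). Sgk1, a kinase activated through mTORC2 that is listed here with the targets, fell by 0.29 (SE 0.07, adjusted p = 0.0630, limma), from 370 ± 30.8 to 302 ± 18.0 RPKM, with no overlap of the lysates. Tfe3, the next by p, had a change of 0.34 (adjusted p = 0.101).

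Footprints of 6 of the 74 genes passed the test, 5 higher and 1 lower, or 8.11% where 10.0% of all genes did in either direction. Deptor, the inhibitory subunit found in both complexes, fell by 0.52 (SE 0.13, adjusted p = 0.0407, limma), from 12.9 ± 1.93 to 9.03 ± 1.54 RPKM. Kptn, a subunit of the KICSTOR scaffold of amino acid sensing, rose by 0.38 (adjusted p = 0.0407, limma). Lamtor4 and Lamtor2, subunits of the Ragulator complex that holds mTORC1 at the lysosome, rose by 0.35 (adjusted p = 0.0303) and 0.22 (adjusted p = 0.0371), Lamtor2 without overlap. The AMPK subunit genes Prkab2 and Prkag1 rose by 0.29 (adjusted p = 0.0933) and 0.27 (adjusted p = 0.0690). TE of these 6 genes did not pass the test, with changes from -0.26 for Deptor to 0.13 for Lamtor2. The median footprint change of the 74 genes was 0.05, beside 0.01 for all genes. On the 5′ UTR, 39 of the 74 had coverage, with a median change of 0.25 beside 0.33 for all genes. Of these, 1 passed (2.56%), where 18.1% of all genes rose. It was Ulk1, an autophagy kinase inhibited by mTORC1, with a change of 0.89 (SE 0.17, adjusted p = 0.0269, limma); it was singled out after its value was seen.

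**Figure D5:**
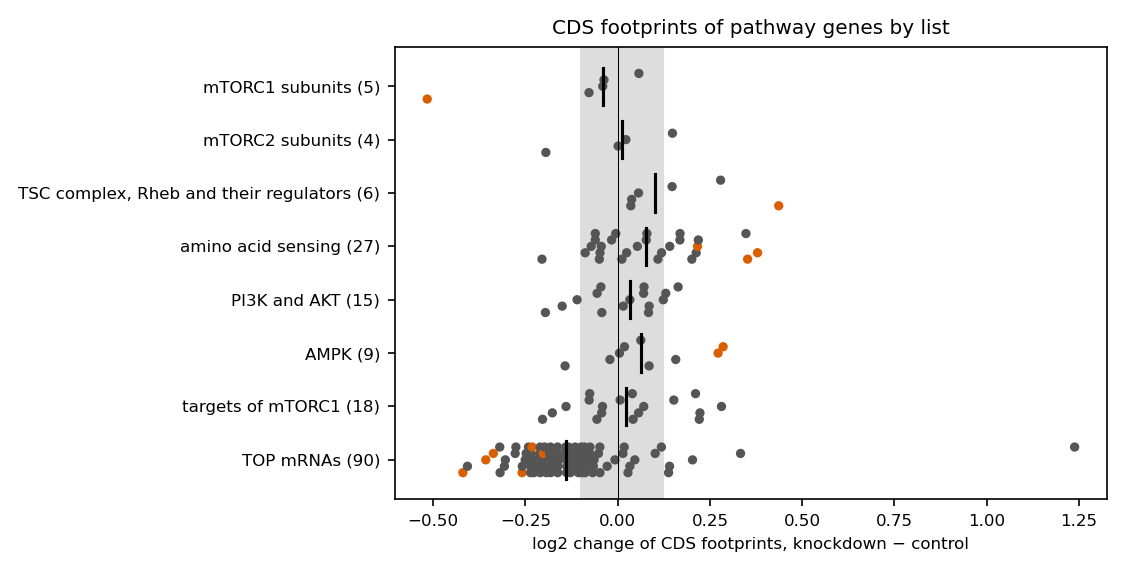
Log2 change of CDS footprints on Denr knockdown for genes of 8 lists of the mTOR pathway (number with values in brackets; a gene of the pathway may be in more than 1 list). Points are genes, orange past an FDR of 0.1, black bars are list medians and the grey band is the middle 50% of all genes. The median of the TOP mRNAs (-0.14) is below the band, those of the other lists are within it, and the point at 1.24 is Rpl36, which did not pass the test (adjusted p = 0.323).

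Of the TOP mRNAs, whose translation depends on mTORC1, 90 had values. Their TE passed the test as lower in 2 (Eef2 and Eif3f) and as higher in 0, where 50 of the 10516 genes passed as lower. Calls of lower TE among all genes numbered 14 without Gfp replicate 2 and 66 without Denr shRNA1 replicate 1. The median TE change of the TOP mRNAs was -0.18 beside -0.01 for all genes. Of the 90, 78 were below and 12 above 0, while 4763 of the 10516 genes were above 0. Eef2, the translocase of elongation, fell by 0.44 (SE 0.09, adjusted p = 0.0804, limma), from a log2 TE of -0.17 ± 0.14 to -0.61 ± 0.14, while its RNA rose by 0.35 (adjusted p = 0.0630) and its footprints changed by -0.10 (adjusted p = 0.365). The TE changes of Eef1a1 (-0.32, adjusted p = 0.255), Tpt1 (-0.29, adjusted p = 0.388), Rps6 (-0.23, adjusted p = 0.845) and Pabpc1 (-0.64, adjusted p = 0.437) did not pass. In footprints 6 TOP mRNAs (6.67%) passed as lower and 0 as higher, beside 4.55% and 5.47% of all genes. Pabpc1, the cytoplasmic poly(A)-binding protein gene, fell by 0.42 (SE 0.07, adjusted p = 0.00585, limma). In RNA 3 passed as higher (3.33%, beside 2.68% of all genes) and the median change was 0.04, beside 0.03. Relative 5′ UTR translation passed as higher in 22 of the 64 TOP mRNAs with coverage (34.4%), with a median change of 0.49, beside 18.1% and 0.33 for all genes. Many ribosomal protein genes have near-identical copies in the genome, so that reads may be divided between them, and their values are uncertain for this reason.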

How the data were processed

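RPF-seq and RNA-seq libraries of 11 NIH3T3 lysates were analysed, 6 with a Denr shRNA and 5 with a scramble or Gfp shRNA. For each library, the authors deposited 1 RPKM value per gene for the CDS and another for the 5′ UTR. According to their methods and processing notes (cutadapt, Bowtie2 2.2.1, TopHat2 2.0.11, Cufflinks 2.2.1, GRCm38), reads were mapped in turn to ribosomal, transfer and messenger RNA and to the genome, footprints were placed by their A-site, ambiguous reads went to the CDS, genes with few reads were removed, and each assay was scaled by the upper quartile. Lysates were not pooled.

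Whole reads were recovered from the steps between RPKM values (relative tolerance 1e-09) in all 10516 genes for the CDS and 10400 for the 5′ UTR. They gave the depth, the coverage filter and the reads for limma-voom. The 5′ UTR lengths behind the RPKM equalled the annotation in 2061 of 2560 genes with a single transcript (80.5%), and the CDS lengths in 2529 of 2712. Symbols were matched for 10505 genes.

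Values were compared as log2(RPKM + 0.1) with limma 3.58.1 (lmFit, eBayes with trend, R 4.3.3), with Benjamini-Hochberg adjustment over all genes tested and an FDR of 0.1. A fold change on this scale understates that of low genes. Differences between shRNAs came from a fit with 4 groups. The labels number the lysates within a group but do not say that equal numbers share a day or culture. Each p-value sets a difference against the spread between these lysates, which were treated as independent units. With only a pair of hairpins on each side, the p-values do not cover how far other hairpins would vary. Only the limma fit for TE was also run on simulated counts, in which some genes had a known change of TE. Alternatives were other pseudocounts, a level filter, centring, no trend, limma-voom, the replicate number as a block, each shRNA alone and each lysate left out. Gfp shRNA alone as control, the alternatives for contrasts between shRNAs, for the RNA-seq ratio and for other pathway genes were chosen once the data were known. Babel, Riborex, RiboDiff and Xtail were left out.

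The members and the gene lists were chosen with earlier results of these data known. Genes beside the members were named by a rule: from the pathway lists those past the FDR for TE, footprints or RNA (at most 10 per measure, or the 3 with the smallest p where fewer than 3 passed), and of the TOP mRNAs Rps6, Eef2, Eef1a1, Tpt1 and Pabpc1. Eif3f, Rpl36 and Ulk1 were named after their values were seen. Of 95 listed TOP mRNAs and 79 other pathway genes, 5 each were not analysed here. uORFs and start codon contexts were read from the GENCODE vM21 transcripts. Python 3.11.15, pandas 2.3.3 and matplotlib 3.10.9 were used.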

Additional observations from a re-analysis of the deposited data

Results flagged for a closer look

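Within 72 groups of values (10 members, 4 measures, knockdown and control lysates apart, with 5′ UTR values for 6 members), 7 had a lysate far from the rest by Dixon's criterion, where chance flags about 1 in 20. For RNA, Denr shRNA1 replicate 1 was low for Rictor (17.4 RPKM, others 27.3 to 30.1 RPKM) and for Rps6kb1 (30.8 RPKM, others 51.7 to 58.4 RPKM), and the log2 TE of Rps6kb1 was -0.33 there and -1.08 to -0.96 in the other knockdown lysates. Rheb RNA was 262.5 RPKM in scramble replicate 3, the RNA-seq library with the fewest reads, and 184 to 195 RPKM in the other control lysates. Mtor footprints were 4.70 RPKM in Denr shRNA1 replicate 3 and 5.44 to 5.91 RPKM in the other knockdown lysates. In Denr shRNA2 replicate 3 the log2 TE of Rptor was -1.05 (others -0.75 to -0.62) and that of Rheb 0.83 (others 0.37 to 0.39). The part of these libraries in the results beyond leaving each out was not tested.

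The Denr hairpins differed for 2 of the 10 members in the test of the difference itself, beside 9.69% of all genes in footprints. Rptor footprints differed by -0.38 on the log2 scale (shRNA2 minus shRNA1, adjusted p = 0.0312, limma) and Rictor footprints by 0.28 (adjusted p = 0.0924, limma). Either call was lost when certain single lysates were left out, as described above.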

How the results depend on the processing

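Of 930 values of member changes under the alternatives, 839 kept their direction and side of the FDR threshold, 15 kept the direction only, and 76 changed sign, none of these past the FDR (lowest adjusted p = 0.240, limma); the cause was not tested. For footprints, 1 member was called, and 2 with shRNA1 alone (Ddit4, and Rictor at -0.33, adjusted p = 0.0659), 0 with shRNA2 alone (Ddit4 0.39, adjusted p = 0.112) and 0 with Gfp shRNA alone as control. Among all 10516 genes, 330 were called higher and 487 lower with shRNA1 alone, 379 and 395 with shRNA2 alone, and 45 and 47 with Gfp shRNA alone. The adjusted p of Ddit4 was 0.0131 to 0.0730 when 1 lysate was left out. For RNA, 0 members were called, and 1 each under the replicate block (Ddit4), with shRNA2 alone (Tsc1), with scramble shRNA alone (Ddit4) and without Gfp replicate 1 (Ddit4 0.57, adjusted p = 0.0186), so 0 to 1 with 1 lysate left out. Among all 10516 genes, 750 were called higher and 253 lower for RNA under the block, and 306 and 168 with shRNA2 alone. These numbers were 708 and 232 with scramble shRNA alone, and 586 and 148 without Gfp replicate 1. For relative 5′ UTR translation, 1 member was called, and 0 after centring on the library median, with either Denr shRNA alone (0.55 and 0.87 for Akt1), with Gfp shRNA alone (0.80), over 5′ UTR RNA and without Denr shRNA2 replicate 2. Of the 5175 genes tested, 5 were called higher with shRNA1 alone, 9 with shRNA2 alone and 47 with Gfp shRNA alone. Over 5′ UTR RNA there were 4, and 38 without Denr shRNA2 replicate 2. Centring removes the median change of 0.33, and the calls among all genes fell from 937 to 4.

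No pairing was assumed: same-numbered lysates deviated together in part (mean correlation 0.33 for RNA, 0.18 for footprints, 0.23 for TE, 0.21 for relative 5′ UTR translation). The highest correlations were 0.77, 0.32, 0.73 and 0.46 and the lowest -0.08, 0.00, -0.13 and -0.05. Of 11 lysates, 7 to 9 correlated best with their own number. With the replicate block, calls among all genes went from 575 to 1067 (higher) and 478 to 873 (lower) for footprints, and from 937 to 2412 for relative 5′ UTR translation, where 3 members were called (Akt1, Rps6kb1 0.65, adjusted p = 0.0535, and Ddit4 0.28, adjusted p = 0.0989). The block put Eif4ebp1 TE at -0.015, Ddit4 TE at -0.013, Rps6kb1 RNA at -0.043 and Tsc1 5′ UTR translation at -0.015, and called 8 other pathway genes for RNA and 11 for 5′ UTR translation. Among all 10516 genes the block called 750 higher and 253 lower for RNA.

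The other signs that changed were these log2 values. With shRNA1 alone, TE was 0.065 for Akt1, 0.014 for Rps6kb1, -0.035 for Eif4ebp1 and -0.055 for Ddit4, footprints were 0.15 for Rptor, -0.0027 for Rheb, -0.031 for Tsc1 and 0.0084 for Akt1, RNA was -0.020 for Mtor and -0.14 for Rps6kb1, and the RNA-seq ratio of Rptor was 0.016. With shRNA2 alone, footprints were 0.013 for Mtor, -0.044 for Tsc2 and 0.017 for Rps6kb1, RNA was -0.0016 for Rptor and 0.082 for Rictor, 5′ UTR translation of Tsc1 was -0.0027 and the RNA-seq ratio of Rps6kb1 -0.031. With scramble shRNA alone, TE was 0.021 for Rps6kb1, -0.052 for Eif4ebp1 and -0.042 for Ddit4, footprints were 0.028 for Rptor and -0.020 for Rheb, RNA was -0.15 for Rps6kb1 and 5′ UTR translation -0.17 for Tsc1. With Gfp shRNA alone, TE was 0.019 for Tsc2, footprints were -0.080 for Tsc1 and 0.052 for Rps6kb1, RNA was -0.017 for Mtor, 0.061 for Rictor and -0.012 for Tsc2, and 5′ UTR translation was -0.10 for Rps6kb1. After centring, 5′ UTR translation was -0.14 for Rptor, -0.13 for Rheb, -0.32 for Tsc1 and -0.014 for Ddit4, and Rps6kb1 RNA was -0.016. Over 5′ UTR RNA, Tsc1 was at -0.38. With limma-voom, the RNA-seq ratio of Rps6kb1 was -0.024. Leaving out 1 lysate, changes crossed 0 for TE of Akt1 (-0.13 to 0.022), Rps6kb1 (-0.18 to 0.045), Eif4ebp1 (-0.075 to 0.090) and Ddit4 (-0.060 to 0.053), footprints of Mtor (-0.061 to 0.0040), Rptor (-0.092 to 0.033) and Rheb (-0.0081 to 0.091), RNA of Rictor (-0.14 to 0.072) and Rps6kb1 (-0.13 to 0.15), 5′ UTR translation of Tsc1 (-0.073 to 0.13) and the RNA-seq ratio of Rps6kb1 (-0.14 to 0.13).

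Of the other pathway genes, 6 were called for footprints, and 3 with shRNA1 alone, 23 with scramble shRNA alone, 0 with Gfp shRNA alone and 2 to 13 with 1 lysate left out (10 without Gfp replicate 1, 13 without Gfp replicate 2, 2 without scramble replicate 2). Among all 10516 genes, 1470 were called higher and 1181 lower with scramble shRNA alone. These numbers were 330 and 487 with shRNA1 alone, 45 and 47 with Gfp shRNA alone, and 994 and 952 without Gfp replicate 2. They were 679 and 448 without Gfp replicate 1 and 290 and 229 without scramble replicate 2. For RNA 2 were called, and 1 with the level filter, 1 after centring, 0 with shRNA1 alone, 5 with shRNA2 alone, 9 with scramble shRNA alone, 0 with Gfp shRNA alone and 0 to 5 with 1 lysate left out. Among all genes, 708 were called higher and 232 lower with scramble shRNA alone, and 306 and 168 with shRNA2 alone. They were 191 and 107 after centring, and 241 and 87 of 10147 genes with the level filter. For 5′ UTR translation 1 was called, and 2 with a pseudocount of 1, without trend, with scramble shRNA alone and with a 5′ UTR RPKM of at least 1, 4 with limma-voom, 0 after centring, with either Denr shRNA alone, with Gfp shRNA alone and over 5′ UTR RNA, and 1 to 8 with 1 lysate left out. Of the 5175 genes tested, 1122 were called higher with limma-voom, 514 with scramble shRNA alone and 1769 without Gfp replicate 2. For TE 1 was called with limma-voom, beside 0 higher and 67 lower among all genes. The calls between the Denr shRNAs numbered 0 to 2 and between the control shRNAs 0 to 1 with 1 lysate left out. Where a group was left with 1 Gfp lysate, it was assumed to vary like the other groups. Read numbers on the 5′ UTR limited that measure to 6 members.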
